A study of Rattus norvegicus with 15 samples.

Results

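The muscle acetylcholine receptor and the machinery that gathers it at the neuromuscular junction were followed in H9c2 cells, a myoblast line from embryonic rat heart, during 14 days of culture with and without retinoic acid (RA). The 9 genes were chosen by name: the receptor subunits Chrna1, Chrnb1, Chrnd, Chrng and Chrne, the clustering protein gene Rapsn, and Musk, Lrp4 and Dok7 of the agrin signal. Of these, 7 were among the 11574 genes of the count table. Chrng, the fetal gamma subunit, and Chrne, the adult epsilon subunit that takes its place, were not among those genes under their symbols or RefSeq synonyms, so the fetal-to-adult comparison was not analysed here.

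The muscle receptor is a ring of subunits around a cation pore, which opens when acetylcholine from the motor nerve binds. Fusing muscle cells make the fetal form with the gamma subunit over their whole surface, and innervation confines the receptor to the synapse, where the epsilon subunit replaces gamma. Agrin, released by the nerve, binds Lrp4, which activates the kinase MuSK with the help of the adaptor Dok7, and rapsyn then ties the receptors together under the membrane. E-boxes, short motifs bound by myogenic factors such as MyoD and myogenin, are known elements of the receptor gene promoters.

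All 15 libraries came from wild-type H9c2 cultures, with 3 libraries per group. T0 was harvested before the differentiation period, T7-RA and T14-RA after 7 and 14 days in 1% serum, and T7+RA and T14+RA after the same days in that medium with 1 µM all-trans RA added daily from a DMSO stock. Per the paper's methods, lowering the serum to 1% started the differentiation. Culture time and this change of serum therefore cannot be told apart in comparisons with T0. RA, made from vitamin A, is a ligand of nuclear receptors that control transcription. The sources used here do not say whether the cultures without RA received DMSO, so RA and its solvent cannot be told apart if they did not. The titles name H9c2 for every sample, while another label field counts upward from H9c2 to H9c14, and the protocols name no nerve cells and no added agrin. The labels number the replicates and the study's methods call them biological, so p-values measure the spread between replicate cultures of 1 cell line.

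Library totals ran from 508397 to 1030820 counts, and the 7 genes had between 0 and 279 counts in a library. The tissue label is heart and myocardium, but of 8 cardiomyocyte markers (Nkx2-5, Gata4, Tbx5, Myh6, Tnni3, Nppa, Ryr2 and Mybpc3) 1 was in the table, the transcription factor Gata4, at 6.90 to 21.6 CPM (counts scaled to a common library size). Tnnt2, the troponin T gene of heart that developing skeletal muscle also expresses, was not on that list and was in the table. All 8 skeletal myotube markers were present (Myog, Myh3, Myh8, Tnnt3, Tnni2, Ckm, Mymk and Mymx), and their summed CPM was 112 to 178 at T0. Without RA it was 2147 to 2577 at day 7 and 7882 to 8485 at day 14, and with RA 1065 to 1232 and 3398 to 3903. The RA change at day 14 was called lower for 5 of the 8 and higher for 0, where it was called lower for 2.35% of all genes and higher for 2.46%. Of 8 markers of motor nerve terminals only Tubb3 was present.

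The deposited annotation places the 7 genes in 6 cytogenetic bands, with Rapsn and Lrp4 both in 3q24. Chrna1 (ENSRNOG00000018286, 3q23) had 451 counts over all libraries, Chrnb1 (ENSRNOG00000014698, 10q24) 900 and Chrnd (ENSRNOG00000019527, 9q35) 1027. Rapsn (ENSRNOG00000011208, 3q24) had 2038 counts, Musk (ENSRNOG00000033567, 5q24) 986, Lrp4 (ENSRNOG00000015285, 3q24) 2089 and Dok7 (ENSRNOG00000022419, 14q21) 275. All are protein-coding. At least 10 counts were reached in 10 libraries by Chrna1, in 12 by Chrnd, in 14 by Dok7 and in all 15 by the others.

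The promoters of the 3 measured subunit genes are shown because these genes of one receptor differed in their time course and in their response to RA. The sequences are the 250 bases before the RefSeq transcription start on the coding strand, on the GRCr8 assembly, which is not the build of the counts. Capitals mark E-boxes, searched as CANNTG, and the N-box, searched as CCGGAA, both on either strand.
Chrna1 (GRCr8, chr3:78877354-78877603, minus strand): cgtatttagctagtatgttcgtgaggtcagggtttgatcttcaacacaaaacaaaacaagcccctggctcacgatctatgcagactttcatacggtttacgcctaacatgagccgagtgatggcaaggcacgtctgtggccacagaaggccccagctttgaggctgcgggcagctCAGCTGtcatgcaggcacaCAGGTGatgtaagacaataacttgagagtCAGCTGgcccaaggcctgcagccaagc
Chrnd (GRCr8, chr9:95310066-95310315, plus strand): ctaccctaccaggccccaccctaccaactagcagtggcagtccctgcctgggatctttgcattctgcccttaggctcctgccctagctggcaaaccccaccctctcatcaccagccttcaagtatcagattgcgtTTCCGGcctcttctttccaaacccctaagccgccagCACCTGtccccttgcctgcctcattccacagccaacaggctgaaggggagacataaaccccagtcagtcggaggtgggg
Chrnb1 (GRCr8, chr10:55015108-55015357, minus strand): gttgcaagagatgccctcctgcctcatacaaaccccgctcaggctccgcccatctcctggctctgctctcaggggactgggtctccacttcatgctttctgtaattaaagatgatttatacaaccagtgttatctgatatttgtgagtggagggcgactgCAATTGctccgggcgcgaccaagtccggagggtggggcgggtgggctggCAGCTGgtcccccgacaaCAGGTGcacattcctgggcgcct
In the whole RefSeq window, which adds 50 bases after the start, Chrna1 and Chrnb1 each held 3 E-boxes, and 16.6% of 33469 rat promoter windows of the same length held at least that many. The Chrna1 matches began at −75, −56 and −27 from the start, and those of Chrnb1 at −90, −41 and −23. Chrnd held 1 E-box at −79, a number that 72.1% of promoters reach or pass, and 1 N-box at −115, a motif found in 15% of promoters. Musk held 3 E-boxes and Dok7 1. Chrng held 4 E-boxes, as do or exceed 5.79% of promoters, and Chrne 1 E-box and 1 N-box. A match is a description of letters, not an occupied site.

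Counts were scaled by TMM and tested with the edgeR quasi-likelihood test, and a gene was called at an adjusted p under 0.001. An additive model gave a T7 term, a T14 term and an RA term for both days together, while a model of group means was used to compare the media on each day and to follow the second week in each medium. All fold changes are log2 values of TMM-scaled counts. For T7, 3 of the 7 genes were called higher (Chrna1, Chrnd and Lrp4) and 0 lower, where 4.29% of all genes were called higher, 4.44% lower and 8.73% in either direction. For T14 the same 3 were called higher and 0 lower, against 8.47% of all genes called higher, 8.85% lower and 17.3% in either direction. The median change of the 7 genes was 0.57 for T7 and 0.28 for T14, and that of all genes was 0.02 and 0.05. These terms assume the same RA change on both days, so they are not the time course without RA. For Chrnb1, the scaled count ratio to T0 without RA was 1.08 at day 7 and 1.48 at day 14. Over the groups, the summed myotube markers, Chrnd and Chrna1 had the same order of mean levels. The marker sum did not overlap between T14+RA and T7-RA, whereas the Chrna1 libraries of these groups did. The part of the markers in these results was not tested. In bulk RNA, fewer expressing cells and less RNA per cell cannot be told apart.

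**Figure D1:**
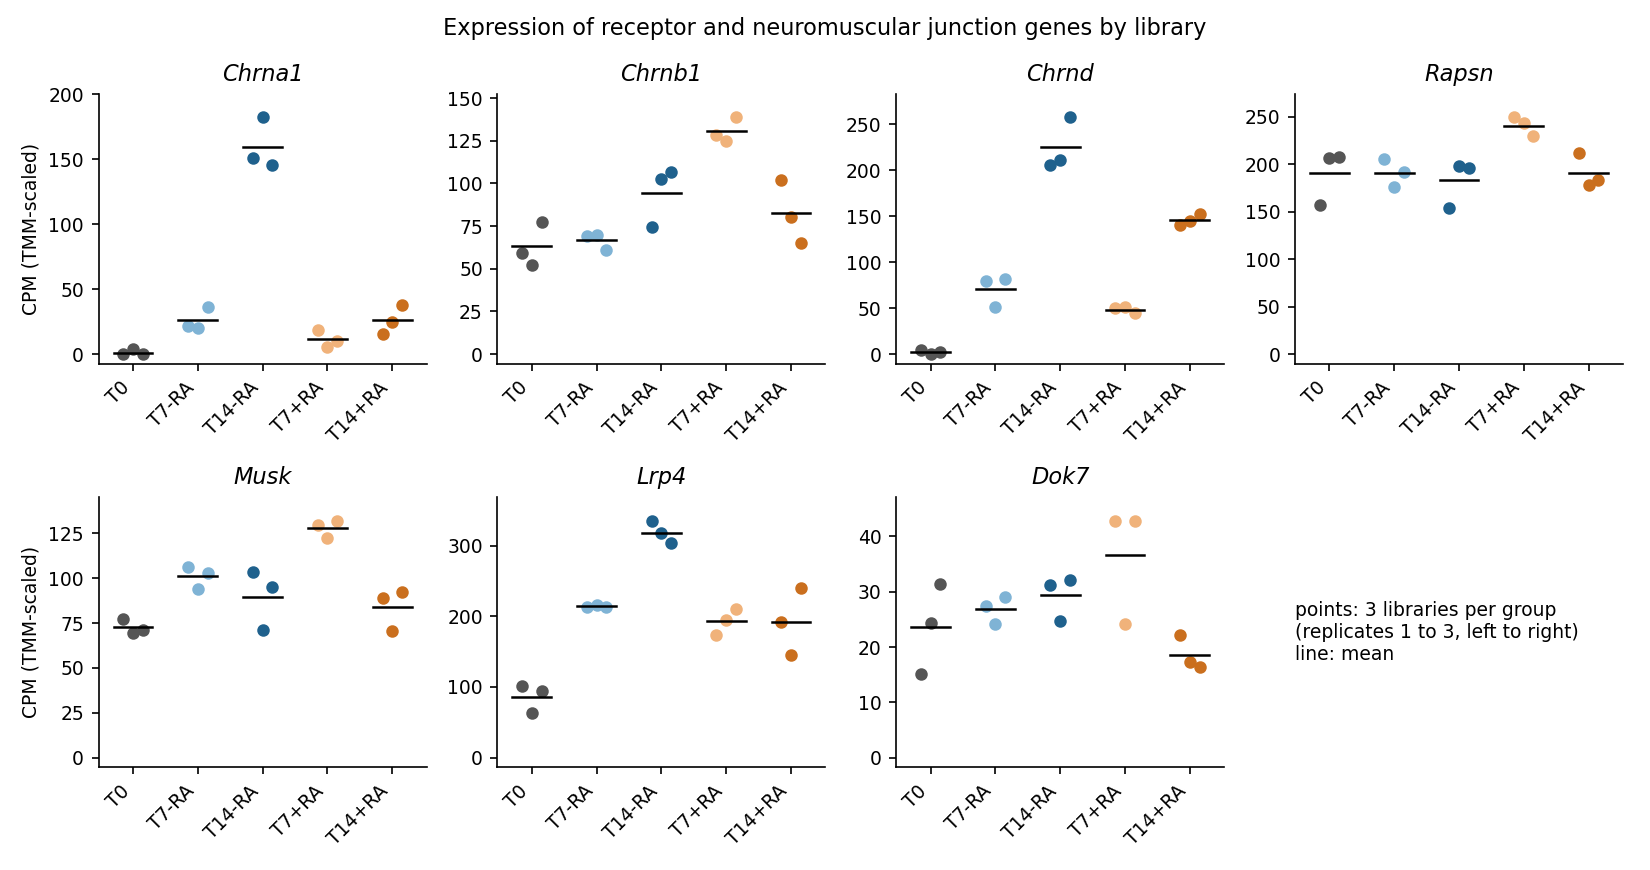
Level of each gene in CPM (linear axis from 0, TMM-scaled) in the 3 libraries of each group, with the mean as a line. Chrna1 and Chrnd were near 0 at T0 and highest in T14-RA, and Rapsn had group means between 183 and 241 CPM throughout.

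Chrna1, which encodes the alpha subunit that carries the main acetylcholine contacts, was barely detected at T0 and had its highest level after 14 days without RA. Its counts at T0 were 0, 2 and 0. Without RA they were 18, 15 and 25 at day 7 and 126, 103 and 86 at day 14. With RA they were 13, 4 and 6 at day 7 and 16, 16 and 21 at day 14. Every T14-RA library stood above all 12 others, where the highest count was 25.

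In scaled units Chrna1 rose from 26.0 ± 8.97 CPM (SD, n = 3) in T7-RA to 160 ± 19.8 CPM in T14-RA. This second-week change was 2.63 (SE 0.237, edgeR adjusted p = 5.3e-13). With RA the level went from 11.4 ± 6.65 CPM at day 7 to 26.2 ± 11.4 CPM at day 14, a change of 1.08 (SE 0.396) that did not pass the threshold (edgeR adjusted p = 0.0655). The T14+RA libraries overlapped those of T7-RA, with 15.4, 25.1 and 38.1 CPM against 21.5, 20.2 and 36.3 CPM. Against the 2 counts of T0, the scaled count ratio was 137 for T14-RA, with an exact 95% interval for counting error of 37.7 to 1140, and 20.7 for T14+RA, with an interval of 5.45 to 175. The fitted T7 and T14 terms of the gene, 4.55 (SE 0.776) and 6.80 (SE 0.562), had edgeR adjusted p-values of 6.82e-05 and 1.09e-10 and depend on the prior count given to T0. Without T0 replicate 1 or replicate 3, the T7 term lost its call (edgeR adjusted p = 0.00227 and 0.00118), and without T0 replicate 2, the one with counts, it was 7.44 and the T14 term 9.70.

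At day 14 Chrna1 was lower with RA than without by 2.71 (SE 0.243, edgeR adjusted p = 1.49e-13), a level 6.53 times lower. The 3 T14+RA libraries were all below the 3 T14-RA libraries. At day 7 the change was −1.16 (SE 0.388, edgeR adjusted p = 0.0536), with libraries that did not overlap but a p that missed the threshold. The difference between the RA changes of the days, −1.54 (SE 0.505), was not called (edgeR adjusted p = 0.199), so the day 14 change was not shown to exceed that of day 7. With limma on quantile-normalized counts the Chrna1 changes were of similar size but no longer called, at −2.63 for RA at day 14 (limma adjusted p = 0.00346) and 2.65 for the second week without RA (limma adjusted p = 0.00556).

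Chrnd, the delta subunit gene, also started near 0 but climbed in both media. Its counts were 3, 0 and 1 at T0. Without RA they were 67, 38 and 56 at day 7 and 171, 119 and 152 at day 14, and with RA 35, 38 and 26 at day 7 and 145, 92 and 84 at day 14. On the CPM scale the order of group means was T14-RA (225 ± 28.6), T14+RA (146 ± 6.26), T7-RA (70.8 ± 17.1), T7+RA (48.5 ± 3.45) and T0 (2.08 ± 2.07, SD, n = 3 each), and no library of one group overlapped the next. The T7 term was 4.86 (SE 0.396) and the T14 term 6.48 (SE 0.324), with edgeR adjusted p-values of 4.66e-15 and 1.06e-24, both set against only 4 counts at T0; without T0 replicate 1 they were 5.95 and 7.58. The count ratio of T14-RA to T0 was 96.5, with an exact counting interval of 37.4 to 356.

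In the second week Chrnd rose by 1.66 without RA (edgeR adjusted p = 1.03e-12) and by 1.57 with RA (edgeR adjusted p = 6.57e-10). The RA term over both days was −0.60 (SE 0.120, edgeR adjusted p = 0.000122), and it missed the threshold without T14-RA replicate 3 (edgeR adjusted p = 0.00248) or T14+RA replicate 1 (0.00141). Taken by day, the change was −0.54 (SE 0.205, edgeR adjusted p = 0.107) at day 7 and −0.63 (SE 0.143) at day 14, where the edgeR adjusted p of 0.00101 fell just outside the threshold. The RA changes of the days differed by −0.09, with a 95% interval from −0.60 to 0.42. With limma on quantile-normalized counts, Chrnd lost its calls for RA (−0.58, limma adjusted p = 0.0737) and for the second week without RA (1.69, 0.00391) and with RA (1.55, 0.00506).

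Chrnb1, the beta subunit gene, was present from the start and had its highest level in T7+RA. At T0 its libraries held 59.3, 52.5 and 77.6 CPM. Those without RA held 69.2, 69.9 and 61.0 CPM at day 7 and 74.5, 103 and 107 at day 14. In T7+RA they held 128, 125 and 139 CPM and in T14+RA 102, 80.2 and 65.3. All 3 T7+RA libraries were above all 12 others, whereas the day 14 groups overlapped.

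Chrnb1 was higher with RA at day 7 by 0.96 (SE 0.174, edgeR adjusted p = 3.41e-05), with 131 ± 7.29 CPM against 66.7 ± 4.94 CPM without RA (SD, n = 3). At day 14 the change was −0.12, with a 95% interval from −0.48 to 0.23 (edgeR adjusted p = 0.779). The difference between the days was −1.08 (SE 0.250) and was called at the threshold of 0.05 used for differences (edgeR adjusted p = 0.0127). It missed that threshold without T14-RA replicate 2 (0.051), T14-RA replicate 3 (0.0778) or T7+RA replicate 3 (0.0531, edgeR adjusted p each). With limma on quantile-normalized counts the day 7 change was 0.94 (limma adjusted p = 0.0178) and the difference −1.14 (limma adjusted p = 0.206), neither called. The T7 and T14 terms of Chrnb1, 0.40 and 0.28, were not called.

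The RA comparison at day 7 had 1 of the 7 genes called, Chrnb1, higher, where 1.87% of all genes were called higher, 1.3% lower and 3.17% in either direction. The libraries did not overlap for 6 of the 7, as for 24.4% of all genes: Chrnb1, Musk and Rapsn lay higher with RA, and Chrna1, Chrnd and Lrp4 lower. At day 14, 2 of the 7 were called, Chrna1 and Lrp4, both lower, where 2.35% of all genes were called lower, 2.46% higher and 4.81% in either direction. The libraries did not overlap for 4, as for 27.2% of all genes, and these were Chrna1, Chrnd, Lrp4 and Dok7, all lower with RA. For the RA term of both days together 2 were called lower, Chrna1 and Chrnd, and 0 higher, against 3.07% of all genes called lower, 3.33% higher and 6.39% in either direction. The difference between days was called for 1 of the 7, Chrnb1, which was lower; it was called lower for 0.458% of all genes and in either direction for 0.743%. The median RA change of the 7 was 0.33 at day 7 and −0.62 at day 14, beside −0.02 and −0.00358 for all genes.

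**Figure D2:**
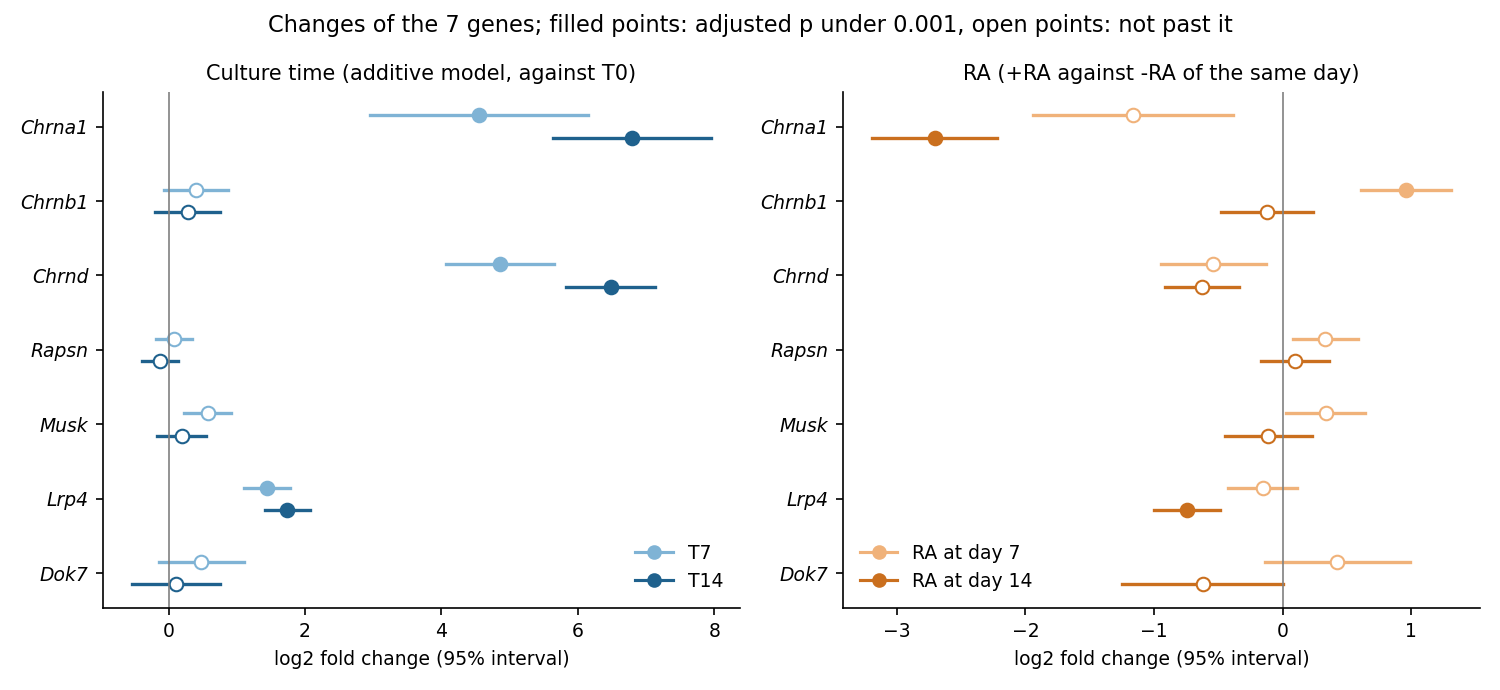
Log2 fold changes with 95% intervals from the edgeR fits. The left panel shows the T7 and T14 terms and the right panel RA at day 7 and day 14; Chrna1 had the lowest RA value at day 14 (−2.71) and Chrnb1 was the gene called higher with RA at day 7 (0.96).

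Divided by gene length, the receptor subunits changed their order along the culture. Levels per kilobase were used here, since reads per gene grow with length. The length is a deposited column with 1 value a gene, read from its name as that of the longest transcript, and the order between genes rests on this reading. At T0 Chrnb1 had 27.7 ± 5.69 CPM per kilobase while Chrna1 had 0.679 ± 1.18 and Chrnd 1.23 ± 1.22 (SD, n = 3). In T14-RA the order was Chrnd (132 ± 16.9), Chrna1 (86.8 ± 10.8) and Chrnb1 (41.6 ± 7.72 CPM per kilobase). In T14+RA it was Chrnd (85.8 ± 3.69), Chrnb1 (36.3 ± 8.18) and Chrna1 (14.24 ± 6.17 CPM per kilobase), so that Chrna1 moved from above Chrnb1 in all 3 libraries to below it in all 3.

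The ratio of Chrna1 to Chrnb1 within a library, per length and with 0.5 added to the counts, was 2.50, 2.19 and 1.68 in T14-RA and 0.192, 0.396 and 0.728 in T14+RA. The ratio of Chrna1 to Chrnd was 0.680, 0.798 and 0.523 in T14-RA and 0.104, 0.164 and 0.234 in T14+RA. Neither ratio overlapped between the 2 groups. The mean log2 ratio differed by −2.46 for Chrna1 over Chrnb1 and by −2.05 for Chrna1 over Chrnd, each with an exact two-sided permutation p of 0.1, the smallest that 3 against 3 libraries can give (0.133 adjusted over 4 such tests). At day 7 the differences were −2.20 (exact permutation p = 0.1) and −0.73 (exact permutation p = 0.2). The 2 ratios were chosen after the values of the genes were seen.

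**Figure D3:**
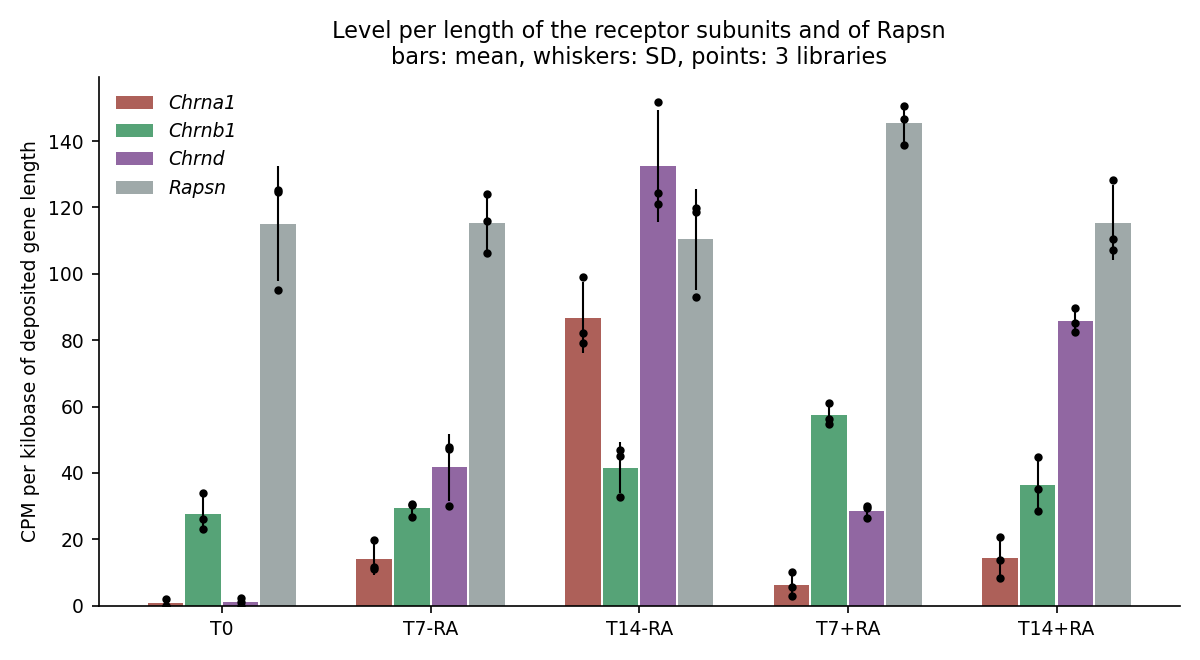
Levels per kilobase (CPM per kilobase of deposited gene length, linear axis from 0) of 3 receptor subunits and Rapsn; bars are means, whiskers SD and points the 3 libraries of each group. Chrna1 stood at 86.8 in T14-RA and 14.24 in T14+RA, while Rapsn was between 110 and 145 in every group.

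Rapsn, the gene of the scaffold rapsyn, was already expressed at T0. It had 157, 206 and 208 CPM there, where Chrna1 and Chrnd were at 0 to 4.14 CPM, and in T14-RA it had 154, 198 and 196. With RA it had 249, 243 and 230 CPM at day 7 and 212, 178 and 183 at day 14. The T7+RA libraries were the highest of all 15, and the other groups overlapped.

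No comparison called Rapsn. Its T7 term was 0.08, with a 95% interval from −0.18 to 0.35, and its T14 term −0.12, from −0.39 to 0.14. With RA it differed by 0.33 (SE 0.127) at day 7 and by 0.09 (SE 0.133) at day 14, with edgeR adjusted p-values of 0.107 and 0.768. Per length, the mean of Rapsn was above those of Chrna1 and Chrnb1 in every group, and above that of Chrnd in every group but T14-RA, where Chrnd had 132 and Rapsn 110 CPM per kilobase.

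Lrp4, the gene of the agrin receptor, rose from T0 and was lower with RA at day 14. Its libraries held 101, 63.8 and 94.3 CPM at T0. Without RA they held 214, 216 and 214 CPM at day 7 and 335, 317 and 303 at day 14. They held 174, 195 and 211 CPM in T7+RA and 192, 145 and 239 in T14+RA. The T0 libraries were the lowest of all and the T14-RA libraries the highest, and the groups with RA overlapped each other.

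The T7 term of Lrp4 was 1.44 (SE 0.169) and its T14 term 1.74 (SE 0.166), with edgeR adjusted p-values of 3.36e-09 and 3.3e-12. In the second week it rose by 0.57 without RA (SE 0.127, edgeR adjusted p = 0.000937). This call lay close to the threshold and was lost in 10 of the 15 fits that left out a library, with an edgeR adjusted p of up to 0.0176. It was also lost with limma-voom (adjusted p = 0.00262), DESeq2 (0.00583), scaling by library size only (0.00103) and limma on quantile-normalized counts (0.113). With RA the second-week change was −0.01, with a 95% interval from −0.29 to 0.26. At day 14 Lrp4 was lower with RA than without by 0.74 (SE 0.130, edgeR adjusted p = 1.17e-05). That call was lost without T14+RA replicate 2 (edgeR adjusted p = 0.00127) and with limma on quantile-normalized counts (−0.84, limma adjusted p = 0.0193). The RA term over both days was −0.46 (SE 0.106) and just missed the threshold (edgeR adjusted p = 0.00126), which it passed with scaling by library size only (0.000557). The value for RA at day 7 was −0.16 (SE 0.134, edgeR adjusted p = 0.653). The difference between the days, −0.59 (SE 0.187), was not called (edgeR adjusted p = 0.172), but passed 0.05 without T14+RA replicate 3 (−0.75, edgeR adjusted p = 0.0283).

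Musk, the gene of the receptor kinase, ranged from 69.4 to 132 CPM over the libraries. It had 77.3, 69.4 and 71.3 CPM at T0. Without RA it had 106, 94.1 and 103 CPM at day 7 and 103, 70.8 and 94.8 at day 14. In T7+RA it had 130, 122 and 132 CPM and in T14+RA 88.7, 70.7 and 92.5. As for Rapsn and Chrnb1, the T7+RA libraries were the highest of all. No call was made for Musk: the T7 term was 0.57 (SE 0.172, edgeR adjusted p = 0.0105), RA at day 7 gave 0.34 (SE 0.155, edgeR adjusted p = 0.232) and RA at day 14 gave −0.11 (SE 0.171, edgeR adjusted p = 0.796).

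Dok7, the gene of the adaptor that switches MuSK on, was the least counted member, with 9 to 30 counts per library. Its mean was 23.7 ± 8.16 CPM at T0 (SD, n = 3 for each group). Without RA it was 26.9 ± 2.47 CPM at day 7 and 29.4 ± 4.01 at day 14, and with RA 36.6 ± 10.8 and 18.6 ± 3.15. The T14+RA libraries of 22.2, 17.3 and 16.3 CPM lay below the T14-RA libraries of 31.2, 24.8 and 32.2. That RA change was −0.62, with a 95% interval from −1.25 to 0.01 (edgeR adjusted p = 0.239).

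During the second week without RA, 3 of the 7 genes were called higher (Chrna1, Chrnd and Lrp4), against 1.87% of all genes called higher, 1.09% lower and 2.95% in either direction. The libraries of the 2 days did not overlap for 4 genes, these 3 and Chrnb1, all higher at day 14, as for 25.7% of all genes. With RA 1 gene was called, Chrnd, higher, against 2.4% of all genes called higher, 2.26% lower and 4.67% in either direction. The libraries did not overlap for 5, as for 28% of all genes: Chrnd was higher at day 14, and Chrnb1, Musk, Rapsn and Dok7 were lower. The values of these 4 were −0.61 for Chrnb1 (SE 0.168, edgeR adjusted p = 0.00853), −0.60 for Musk (SE 0.161, 0.00649), −0.32 for Rapsn (SE 0.127, 0.0974) and −0.91 for Dok7 (SE 0.302, 0.0376), none past the threshold of 0.001. At a threshold of 0.05 the count with RA became 4 of 7, 1 higher and 3 lower, where 1315 of the 11574 genes were called in either direction.

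A wider set of 96 genes of the junction in 8 lists had 69 members in the table. Of these 69, 11 were called higher and 6 lower for T14, where 8.47% of all genes were called higher and 8.85% lower. For RA, 9 were called higher and 5 lower, where 3.33% of all genes were called higher and 3.07% lower. The median change of the 69 was −0.03 for T14 and 0.01 for RA, beside 0.05 and −0.00863 for all genes. Not called were 52 for T14 and 55 for RA. Of the 69, 4 passed the authors' minimum only through the group where each was highest: Dtna and Chrnb4, which were called, and Colq and Scn4a, which were not. Over the other 65, 10 were called higher and 6 lower for T14, and 8 higher and 4 lower for RA.

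Among 19 measured signalling partners of the receptor (agrin pathway, kinases and small GTPases), 0 were called higher and 3 lower for T14 (8.85% of all genes lower, 17.3% in either direction), and 0 for RA (6.39%). This is close to the share of all genes. The kinase genes Pak1 (−0.83, edgeR adjusted p = 9.85e-07) and Src (−0.81, 4.23e-05) and the small GTPase gene Rhoa (−0.47, 0.000282) made up the 3. Agrn, the agrin gene itself, named although it was not called, had group means between 122 and 162 CPM and an RA term of 0.11 (SE 0.102, edgeR adjusted p = 0.597).

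Of 9 measured genes of the synaptic basal lamina and cholinesterase, 2 were called higher and 2 lower for T14 (17.3% of all genes in either direction), and 2 higher and 2 lower for RA (6.39% of all genes). Nid1, which encodes the laminin-binding nidogen, fell by 0.93 for T14 (edgeR adjusted p = 2.01e-11) and had an RA term of 0.45 (edgeR adjusted p = 6.61e-06). Lamc1, a laminin gamma chain gene, fell by 0.71 for T14 (edgeR adjusted p = 1.87e-08). With RA, Lama4, a laminin alpha chain found at synapses, was lower by 1.00 (edgeR adjusted p = 3.69e-08), and Bgn, the proteoglycan biglycan, was lower by 0.62 (edgeR adjusted p = 1.59e-10). The acetylcholinesterase gene Ache, named after its values were seen, had 0 counts in all T0 libraries. Summed over the 3 libraries of a group, it had 10 counts at day 7 and 24 at day 14 without RA, and 13 and 9 with RA, and its T14 term was called higher (edgeR adjusted p = 0.00027).

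Nid2, the second nidogen gene, was also named after its values were seen, since its RA change also differed between the days. It was 1.03 at day 7 (SE 0.115, edgeR adjusted p = 1.41e-10) and −1.07 at day 14 (SE 0.143, edgeR adjusted p = 1.93e-08), with a difference of −2.10 (SE 0.184, edgeR adjusted p = 3.06e-13).

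All 14 postsynaptic scaffold genes listed were measured, with 4 called higher and 1 lower for T14 (8.47% and 8.85% of all genes), and 1 higher and 3 lower for RA (3.33% and 3.07%). Among them Dtna, which encodes dystrobrevin and is named after its values were seen, was called higher for T14 and lower for RA, but 21 of its 28 counts were in T14-RA, so it passed the authors' minimum of over 20 only through that group. Without it the counts were 3 higher for T14 and 2 lower for RA. Actn2, the gene of an actin-binding protein of the Z-disc, had 0 counts at T0, 80 in T14-RA and 17 in T14+RA over 3 libraries each, and its RA term was −1.89 (SE 0.348, edgeR adjusted p = 3.85e-05). The desmin gene Des rose by 2.61 for T14 (edgeR adjusted p = 3.42e-07). With RA, Dag1, which encodes dystroglycan, was higher by 0.64 (edgeR adjusted p = 2.01e-09), while Ank3, an ankyrin gene, was lower by 0.99 (edgeR adjusted p = 2.21e-07).

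Of 9 measured genes of the transcription that follows muscle activity and denervation, 4 were called higher and 0 lower for T14 (8.47% and 8.85% of all genes), and 3 higher and 0 lower for RA (3.33% and 3.07%). Myog, the myogenic factor known to act on receptor genes, rose by 3.81 for T14 (SE 0.153, edgeR adjusted p = 2.65e-29). Its group means were 48.6 CPM at T0, and 638 CPM without and 569 CPM with RA at day 14. Gadd45a, a denervation-induced stress gene, rose by 2.97 for T14 and was higher by 1.42 with RA (edgeR adjusted p = 4.8e-19 and 3.97e-18). Trim63, a ubiquitin ligase gene of muscle atrophy, rose by 3.10 for T14 (edgeR adjusted p = 3.07e-10), and Ncam1, an adhesion molecule gene, was higher by 0.94 with RA (edgeR adjusted p = 1.83e-14).

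Of 6 measured genes of neuregulin signalling and synaptic transcription, 1 was called for T14, the neuregulin receptor gene Erbb3, at 2.57 (edgeR adjusted p = 1.76e-06), a count near the 17.3% of all genes, and 0 for RA. Of 10 measured genes of receptor assembly, folding and glycosylation, 2 were called higher with RA, the chaperone genes Canx (0.38, edgeR adjusted p = 5.99e-05) and Hspa5 (0.42, 9.05e-06), where 3.33% of all genes were called higher, and 0 were called for T14. Of 11 neuronal nicotinic subunit genes 1 was in the table, Chrnb4. Summed over the 3 libraries of a group, it had 1 count at T0, 1 at day 7 and 0 at day 14 without RA, and 23 and 9 with RA, and its RA term was called higher (edgeR adjusted p = 1.98e-05). Without T7+RA it had 11 counts, so it passed the authors' minimum of over 20 only through the group where it was highest, and its call is given as a description. Of 5 muscarinic receptor genes Chrm3 was in the table and was not called.

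**Figure D4:**
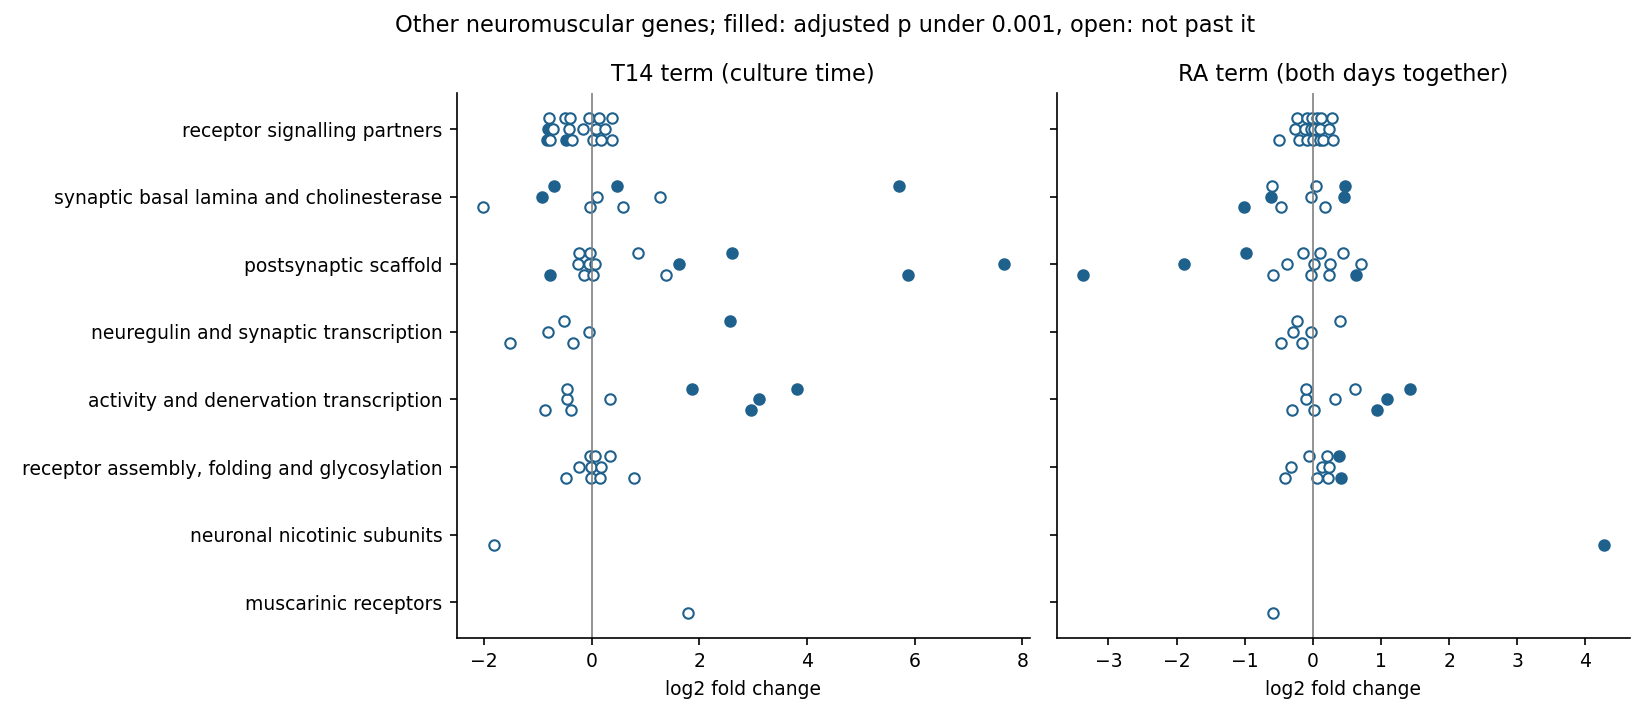
Log2 fold changes of the T14 term (left) and the RA term (right) for the 69 measured genes of 8 lists, 1 point a gene, with points spread vertically within a list for legibility. Filled points passed the threshold; 17 genes did so for T14 and 14 for RA.

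Among 8379 genes with a mean of at least 10 counts, the profiles most like each member over the 15 libraries were found by Pearson's r of log2 CPM, given as a description because the libraries share groups and depth. For Chrnd they included Tnnt2 (r = 0.989) and Acta1 (0.986), and for Chrna1 they were Thbs2 (r = 0.962), Irf7 (0.957) and Stac3 (0.957). For Lrp4 they were RGD1304884 (r = 0.949), Sub1 (0.937) and Deptor (0.937). Where a gene changes little between groups or has few counts, r tends to be lower for that reason. The members without a called time course had neighbours of lower r. For Musk they were Abce1 (r = 0.877), Arhgap5 (0.872) and Atxn7l3b (0.855), and for Chrnb1 Dner (0.815), Zbtb44 (0.809) and Dgka (0.806). For Rapsn they were Tmem108 (r = 0.787), AABR07019403.1 (0.787) and Slc25a30 (0.775), and for Dok7 Chst15 (0.764), Ampd2 (0.760) and AABR07062570.1 (0.758). Between members, r was 0.858 for Chrna1 with Chrnd, 0.849 for Chrna1 with Lrp4 and 0.178 for Chrna1 with Chrnb1.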

How the data were processed

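RNA-seq libraries of H9c2 cultures were made with a stranded mRNA kit. Per the submitters' processing notes and the paper, the authors mapped the reads with HISAT2 to Rnor_6.0 and counted them with featureCounts; which annotation release and strand setting they used is not given in the sources used here. The authors deposited raw counts per gene for 11574 genes, each with over 20 counts in the 15 libraries together, with gene symbols, bands and a column read from its name as gene length (other deposited columns of derived values were not used). The members and lists were chosen with earlier results of these data known.

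Counts were normalized by TMM and tested with the robust quasi-likelihood test of edgeR 4.0.16 in R 4.3.3, without a further filter, and adjusted by Benjamini-Hochberg over all genes of each comparison. The additive model held T7, T14 and RA terms, after the study's formula; a second model held the 5 group means. Genes were called at an adjusted p under 0.001, the difference between days at 0.05. SE values are the absolute change divided by the square root of F, and intervals are 95%. Count ratios carry an exact conditional interval, which covers counting error only. Alternatives were limma 3.58.1 (voom, or quantile-normalized log2(count + 1)), DESeq2 1.42.0, other scalings, filterByExpr, another threshold, a replicate block and each library left out. The fit was tested on simulated data. No replicate pair agreed within counting noise (chi-square per gene 1.07 to 1.86, and 1.96 to 2.77 between the T0 libraries), so none was counted as 1 sample. Named genes were every member, the called genes of each list (at most the 4 of lowest p), and the 3 profiles most like each member with at least 150 counts; genes named outside this rule are marked in the text. A marker list and 1 similar profile are not reported here. Promoters came from RefSeq (GRCr8); 7 of 9 genes matched. Figures were drawn with matplotlib 3.10.9.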

Additional observations from a re-analysis of the deposited data

Results flagged for a closer look

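The RA change of Chrnb1, the beta subunit gene, differed between the days: the change at day 14 minus the change at day 7 was −1.08 (SE 0.250, edgeR adjusted p = 0.0127). All 3 libraries with RA were above all 3 without it at day 7, and at day 14 the libraries overlapped. Leaving out single libraries moved the difference between −1.31 and −0.97 and its edgeR adjusted p between 0.00462 and 0.0778.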

How the results depend on the processing

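The 7 alternative settings without a library left out gave 373 single-gene results on the same side of the threshold and in the same direction, 13 that lost a call, 5 that gained one and 1 that turned, Dok7 for T14 (−0.00629 with limma on quantile-normalized counts). That limma setting called 0 members for RA, RA at day 7, RA at day 14, the difference between days and both second-week changes, while its calls over all genes were 310 (740 with edgeR) for RA, 97 (367) for RA at day 7, 157 (557) for RA at day 14, 22 (86) for the difference, and 56 (342) without and 93 (540) with RA for the second week. The difference between days had 0 members at a threshold of 0.001, where 25 of all genes were called. T14+RA against T7+RA had 4 members at 0.05, where 1315 of all genes were called. Without a library, members called ranged from 0 to 2 for the difference, from 1 to 3 for RA and from 1 to 3 for RA at day 14. Over all genes, the calls of these fits ranged from 51 to 129, from 625 to 838 and from 376 to 657. Values that turned sign without a library ranged from −0.0455 to 0.16 for Rapsn at T7, −0.16 to 0.36 for Dok7 at T14, −0.20 to 0.10 for the difference of Chrnd, −0.24 to 0.0178 for Musk, −0.0363 to 0.16 for Rapsn and −0.35 to 0.00364 for Chrnb1 with RA at day 14, −0.19 to 0.0617 for Dok7 with RA, −0.15 to 0.0468 for Rapsn in the second week without RA and −0.18 to 0.13 for Lrp4 in it with RA; none was called. The causes were not tested. Chrnd with RA at day 14 passed with other size factors (0.00095) or library size only (0.000678), and Lrp4 with RA passed with library size only (−0.48, 0.000557). Scaling by library size moved the median of all genes to 0.13 (T7) and 0.15 (T14). Same-numbered libraries did not deviate together (mean correlation 0.02, from −0.04 to 0.10), so pairing by number was not shown. The replicate block added calls for Chrnd with RA at day 14 (−0.62, edgeR adjusted p = 0.000377) and for Lrp4 with RA (−0.46, 6e-04), and changed no other call of a member. It also raised the calls over all genes, to 797 (740 without the block) for RA, 429 (367) for RA at day 7 and 628 (557) for RA at day 14. For the difference they were 118 (86), and for the second week 400 (342) without and 626 (540) with RA. The mean correlation was highest with the own number for 6 of 15 libraries. The planned Chrng to Chrne comparison was not run. Depth limits Dok7 at 9 to 30 counts per library.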
